A study of Mus musculus with 8 samples.

Results

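The late cornified envelope genes (Lce) and the precursors and modifying enzymes of the cornified envelope were followed in mouse epidermis after a phorbol ester and a glucocorticoid, with and without REDD1. The members were the protein-coding genes whose symbol starts with Lce, plus Lor, Ivl, Kprp, Lelp1, Crct1, Cnfn, Sbsn, Krtdap, Dmkn, Cdsn, Tgm1, Tgm3, Tgm5, Ppl, Evpl, Scel, Casp14, Asprv1 and Calm4, each with 10 or more counts summed over the libraries. This gave 40 genes of 25321 with 10 or more counts. They comprised 14 Lce1 genes, 6 Lce3 genes, Lce6a and 19 genes outside the Lce family.

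The cornified envelope is the insoluble protein shell that replaces the plasma membrane of keratinocytes as they die into the stratum corneum. Transglutaminases crosslink a scaffold of periplakin, envoplakin and involucrin, then add loricrin, which makes up most of the mass, and late cornified envelope and small proline-rich proteins. Most of these genes lie in the epidermal differentiation complex and are switched on in the last living layers of the epidermis. In human skin, LCE1 and LCE2 genes are expressed in normal epidermis, whereas LCE3 genes are low there and are induced by barrier damage.

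RNA was sequenced from epidermis scraped off shaved back skin of female mice, all F1 of C57Bl x 129. REDD1, the product of Ddit4, restrains mTORC1 under stress and is itself a glucocorticoid target. The KO mice lacked REDD1 and the WT mice carried it. Skin received the glucocorticoid fluocinolone acetonide (FA, 2 ug) 1 h before 4 ug of the tumour promoter TPA, or 4 ug of TPA alone, or only the acetone (200 ul) in which the agents were given. Epidermis was taken 24 h after TPA. There was 1 library for each of KO with FA+TPA, WT with FA+TPA, KO with TPA and WT with TPA, and there were 2 for KO with vehicle and 2 for WT with vehicle. The sources used here do not give age, the kind of REDD1 allele or the number of animals behind a library.

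Library totals ranged from 16874233 to 22560098 counts, and the members took 1.78% to 3.28% of them. Levels are CPM, read counts scaled to library size and normalised by TMM, and the floor of 3 counts that a 0 still allows was worth 0.135 to 0.191 CPM. Ddit4 was at 7.25 CPM in KO and 90.3 CPM in WT under FA+TPA, 4.44 CPM in KO and 64.2 CPM in WT under TPA, and 18.8 and 18.6 CPM in KO and 128 and 117 CPM in WT with vehicle. It was thus lower in each KO library than in every WT library (-3.16 ± 0.18, edgeR adjusted p = 1.2e-05). The 6 markers of basal keratinocytes summed to between 10960.3 and 16102 CPM, whereas 11 markers of hair shaft and inner root sheath summed to at most 15.2 CPM, with Krt81 at 0 in all 8 libraries. In scraped tissue, fewer cells of a type and less RNA per cell cannot be told apart. The treated groups had 1 library per genotype, so treatment effects were taken over both genotypes, and p-values measure only how these libraries scatter, which may be technical. Changes are log2 fold changes ± standard error (SE) from edgeR, called at an adjusted p under 0.05 over 19251 genes.

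The members on chromosome 3 numbered 26 and lay between positions 92080271 and 93019060 of mm10. From one end to the other the order was Lor, Lelp1, Ivl, Lce6a, Lce1a1 to Lce1k, Kprp, Lce1l, Lce3a to Lce3f, Crct1 and Lce1m. Lce1m therefore sits apart from its family, on the far side of the Lce3 genes. Promoter windows of the 250 bases before the RefSeq start (GRCm38.p6, the assembly of mm10) were found for 35 of the 40 members. The windows below are a selection and do not show how common a motif is among the members. Those of Lor, Ivl, Scel and Krtdap hold the AP-1 type motif described next, and the others do not. Each is written 5′ to 3′ on the strand of its gene. Capitals mark TGACTCA, the AP-1 type motif through which phorbol esters are known to act, or its reverse complement TGAGTCA, and TATAAA.
Lor (chr3:92083143-92083392, minus strand): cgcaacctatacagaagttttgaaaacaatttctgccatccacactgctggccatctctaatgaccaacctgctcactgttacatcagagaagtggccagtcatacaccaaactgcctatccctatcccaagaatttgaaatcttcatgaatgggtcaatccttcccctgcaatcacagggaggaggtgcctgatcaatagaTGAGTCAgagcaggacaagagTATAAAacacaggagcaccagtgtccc
Ivl (chr3:92573736-92573985, minus strand): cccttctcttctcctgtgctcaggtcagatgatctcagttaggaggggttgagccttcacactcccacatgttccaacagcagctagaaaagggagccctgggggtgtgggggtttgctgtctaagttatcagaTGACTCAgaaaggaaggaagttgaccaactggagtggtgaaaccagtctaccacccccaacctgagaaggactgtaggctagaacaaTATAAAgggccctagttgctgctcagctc
Scel (chr14:103513091-103513340, plus strand): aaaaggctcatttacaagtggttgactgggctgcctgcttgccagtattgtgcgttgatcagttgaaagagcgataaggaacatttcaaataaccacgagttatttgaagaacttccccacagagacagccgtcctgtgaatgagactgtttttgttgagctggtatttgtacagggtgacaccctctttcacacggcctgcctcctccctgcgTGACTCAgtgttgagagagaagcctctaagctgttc
Krtdap (chr7:30787655-30787904, plus strand): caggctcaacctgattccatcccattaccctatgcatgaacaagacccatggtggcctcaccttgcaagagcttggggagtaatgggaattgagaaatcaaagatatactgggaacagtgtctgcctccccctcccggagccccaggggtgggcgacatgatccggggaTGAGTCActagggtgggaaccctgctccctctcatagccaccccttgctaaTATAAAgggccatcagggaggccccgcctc
Lce1m (chr3:93019062-93019311, minus strand): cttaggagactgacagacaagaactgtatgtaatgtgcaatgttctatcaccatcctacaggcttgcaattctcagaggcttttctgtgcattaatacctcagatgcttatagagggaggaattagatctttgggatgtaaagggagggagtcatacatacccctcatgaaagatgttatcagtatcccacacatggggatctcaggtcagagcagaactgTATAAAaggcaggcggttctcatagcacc
Lce1g (chr3:92752339-92752588, minus strand): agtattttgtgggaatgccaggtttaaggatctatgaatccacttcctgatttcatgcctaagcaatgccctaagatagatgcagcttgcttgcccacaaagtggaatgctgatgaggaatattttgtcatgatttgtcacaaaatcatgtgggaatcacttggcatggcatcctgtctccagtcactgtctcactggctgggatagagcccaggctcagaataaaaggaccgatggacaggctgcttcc
Lce3d (chr3:92957140-92957389, plus strand): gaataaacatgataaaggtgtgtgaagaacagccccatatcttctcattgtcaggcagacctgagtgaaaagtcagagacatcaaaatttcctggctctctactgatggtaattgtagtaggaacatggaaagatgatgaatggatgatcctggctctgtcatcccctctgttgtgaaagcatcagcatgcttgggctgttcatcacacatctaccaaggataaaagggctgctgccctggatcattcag

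The AP-1 type motif, searched on both strands, stood in the windows of 5 of the 15 non-Lce members that had one. In Lor it began at position -48, in Scel at -36, in Krtdap at -81 and in Ivl at -116, counted back from the base before the start, and Dmkn held it in each of its windows. None of 13 Lce1 windows, 6 Lce3 windows or the Lce6a window held these letters. Over all 32851 promoter windows of the same length, 4.46% held them. TATAAA, also searched on both strands, was in 8 members, among them Lor, Ivl, Krtdap and Lce1m, and in 12.4% of all windows. A palindrome of the glucocorticoid response element type was in none of the members' windows and in 0.387% of all windows. None of these motifs overlapped another in the windows shown, and a match describes letters only.

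Per kilobase of exon, the members' levels spanned several orders of magnitude. With vehicle, the mean over libraries was highest for dermokine (Dmkn) at 1651 CPM per kb, followed by Lce1m at 1427 and Krtdap at 1343 CPM per kb. Dermokine and keratinocyte differentiation-associated protein (Krtdap) are secreted by differentiating keratinocytes. Under TPA, the calmodulin relative Calm4 ranked first at 2286 CPM per kb and Lce1m ranked 16 at 278.5 CPM per kb. Under FA+TPA, Calm4 again ranked first at 3255 CPM per kb and Lce1m ranked 6 at 1256 CPM per kb. The 6 Lce3 genes ranked from 33 to 40 with vehicle, at 0.0404 to 4.2 CPM per kb, and from 31 to 37 under TPA, at 20.0 to 72.6 CPM per kb. Over the 6 Lce3 genes the summed level was 95.4 CPM in KO and 75.1 CPM in WT under FA+TPA and 74.7 CPM in KO and 161 CPM in WT under TPA. With vehicle that sum was 2.86 and 4.13 CPM in KO and 2.2 and 2.53 CPM in WT.

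**Figure D1:**
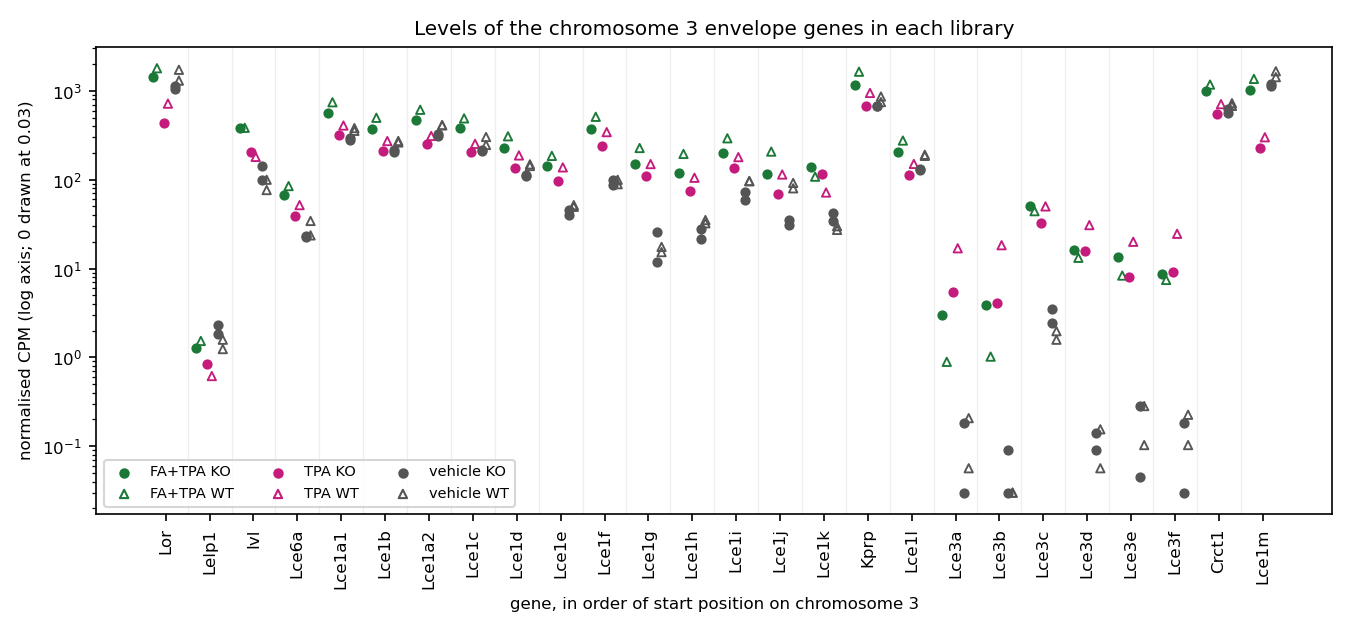
Normalised CPM (log axis, 0 drawn at 0.03) of the 26 chromosome 3 members in each of the 8 libraries, with genes in order of position, colours for treatment, filled circles for KO and open triangles for WT. Lce1m, at the far right, was at 228 CPM in KO and 300.1 CPM in WT under TPA, below every other library, and the Lce3 genes were below 4 CPM in every vehicle library.

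TPA was first set against vehicle, with both genotypes in the fit. It raised 24 of the 40 members and lowered 7, where 23.2% of all genes tested rose, 22.8% fell and 46.0% did either. The median change was 0.80 over the members and -0.03 over all genes. Of the 24, 5 Lce3 genes reached the low-count cutoff (0.544 CPM) only in treated libraries and could only come out higher. Among the 34 members at or over the cutoff in at least 2 vehicle libraries and both TPA libraries, 19 rose and 6 fell, where 25.2% and 22.7% of the 16117 genes meeting the same rule did. The Lce1 family did not move as a block. TPA raised 8 Lce1 genes and lowered 3, with changes from -2.36 to 2.86. Scaling by library size alone moved the median of all genes to -0.25, and all-gene calls to 2846 higher and 6432 lower, against 4472 and 4380 with TMM. Under that scaling 23 members rose and 11 fell.

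Lce1m (ENSMUSG00000027912, chr3:93017810-93019060, minus strand, 4 exons merged over its transcripts) fell furthest of the 40 members. It was at 1022 CPM in KO and 1362 CPM in WT under FA+TPA, 228 CPM in KO and 300.1 CPM in WT under TPA, and 1208 and 1123 CPM in KO and 1425 and 1661 CPM in WT with vehicle. Both TPA libraries lay below every vehicle and FA+TPA library (-2.36 ± 0.11, edgeR adjusted p = 1.27e-07). No stretch of 50 bases of its transcript occurred in another gene, whereas such shared stretches made up 9.12% to 27.1% of the other Lce1 transcripts. Reads of those genes can have been split or dropped in counting, so their single values are less certain than that of Lce1m.

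The rising Lce1 genes were neighbours, Lce1d to Lce1k. Lce1g (ENSMUSG00000027919, chr3:92750148-92752338, minus strand, 2 exons) rose most in the family and was at 148 CPM in KO and 227 CPM in WT under FA+TPA, 109.5 CPM in KO and 149.8 CPM in WT under TPA, and 11.8 and 25.5 CPM in KO and 17.5 and 15.3 CPM in WT with vehicle. Both TPA libraries were above all vehicle libraries (2.86 ± 0.24, edgeR adjusted p = 6.46e-06), although the KO vehicle pair differed by more than the WT pair. Next to it, Lce1f was at 376 CPM in KO and 510.0 CPM in WT under FA+TPA, 240.3 CPM in KO and 343 CPM in WT under TPA, and 87.3 and 98.2 CPM in KO and 99.7 and 88.9 CPM in WT with vehicle (TPA against vehicle 1.62 ± 0.12, edgeR adjusted p = 2.48e-06). Lce1h was at 119 CPM in KO and 195 CPM in WT under FA+TPA, 75.5 CPM in KO and 105 CPM in WT under TPA, and 21.5 and 28.2 CPM in KO and 32.3 and 35.1 CPM in WT with vehicle (TPA against vehicle 1.62 ± 0.11, edgeR adjusted p = 1.58e-06). Neither gene's TPA libraries overlapped with vehicle.

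The gains grew smaller away from Lce1g on one side, through Lce1f to Lce1d. Lce1e was at 143 CPM in KO and 185 CPM in WT under FA+TPA, 96.4 CPM in KO and 138 CPM in WT under TPA, and 39.9 and 45.3 CPM in KO and 49.5 and 51.7 CPM in WT with vehicle (TPA against vehicle 1.31 ± 0.09, edgeR adjusted p = 1.58e-06). Lce1d was at 228 CPM in KO and 308 CPM in WT under FA+TPA, 135 CPM in KO and 187 CPM in WT under TPA, and 109 and 112 CPM in KO and 142 and 149 CPM in WT with vehicle (TPA against vehicle 0.33 ± 0.08, edgeR adjusted p = 0.00497), and this smaller rise was lost when the WT TPA library was left out and under scaling by library size alone. On the other side, Lce1i was at 198 CPM in KO and 292 CPM in WT under FA+TPA, 135 CPM in KO and 179 CPM in WT under TPA, and 59.8 and 73.3 CPM in KO and 95.8 and 96.8 CPM in WT with vehicle (TPA against vehicle 0.96 ± 0.09, edgeR adjusted p = 1.54e-05). Lce1j (0.74 ± 0.14, edgeR adjusted p = 0.00174) and Lce1k (1.47 ± 0.10, edgeR adjusted p = 1.9e-06) rose too.

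Lce1a1, Lce1b and Lce1c did not pass the test and changed by 0.15 ± 0.08, 0.01 ± 0.08 and -0.09 ± 0.10. Lce1a1 was at 561 CPM in KO and 744 CPM in WT under FA+TPA, 321 CPM in KO and 407 CPM in WT under TPA, and 297 and 281 CPM in KO and 354 and 380.4 CPM in WT with vehicle. Lce1b was at 374 CPM in KO and 497 CPM in WT under FA+TPA, 209 CPM in KO and 272 CPM in WT under TPA, and 214 and 206 CPM in KO and 262 and 273 CPM in WT with vehicle, and Lce1c at 377 CPM in KO and 489.7 CPM in WT under FA+TPA, 202 CPM in KO and 253 CPM in WT under TPA, and 214 and 211 CPM in KO and 246 and 302 CPM in WT with vehicle. The levels of these 3 genes under TPA lay within or near the range of vehicle skin. Lce1a2 fell with TPA (-0.37 ± 0.08, edgeR adjusted p = 0.00324), and Lce1l too (-0.26 ± 0.08, edgeR adjusted p = 0.0189). Lce1a2 was at 466 CPM in KO and 612 CPM in WT under FA+TPA, 251 CPM in KO and 310.3 CPM in WT under TPA, and 329.5 and 310.3 CPM in KO and 411 and 409 CPM in WT with vehicle, and Lce1l at 207 CPM in KO and 276 CPM in WT under FA+TPA, 114 CPM in KO and 150.5 CPM in WT under TPA, and 129.7 and 133 CPM in KO and 191 and 185 CPM in WT with vehicle. Both falls were small and were lost without the WT TPA library, and that of Lce1l also without the KO TPA library and with 1 mean per group. Without the WT TPA library, fewer members were called lower, and fewer of all genes were too.

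With the largest loss and the gains in different genes, the makeup of the family differed between treatments. The summed Lce1 level was 2302 CPM in KO and 2981 CPM in WT under TPA, against 2786 and 2724 CPM in KO and 3434 and 3769 CPM in WT with vehicle, a change of -0.27 ± 0.09. Lce1m supplied 9.92% of it in KO and 10.1% in WT under TPA, against 41.2% to 44.1% with vehicle. Lce1e to Lce1k, grouped after their values were seen, supplied 36.5% in KO and 36.9% in WT under TPA, against 10.3% to 12.8% with vehicle. Under FA+TPA, Lce1m supplied 22.8% in KO and 22.7% in WT, and Lce1e to Lce1k 27.7% in KO and 28.7% in WT.

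**Figure D2:**
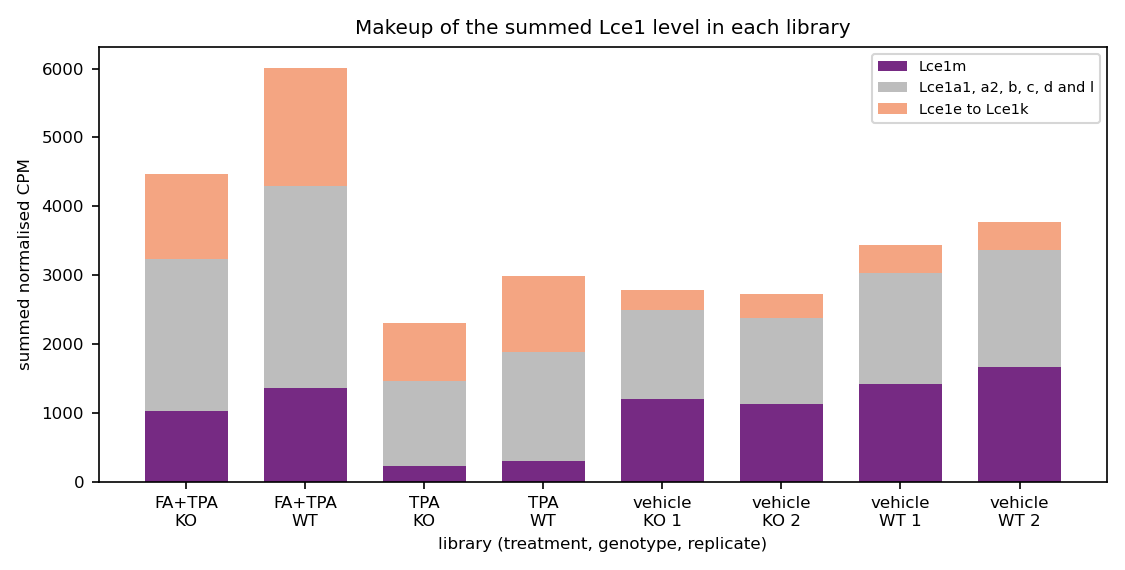
Stacked bars of summed normalised CPM of the 14 Lce1 genes in each library, split into Lce1m, a middle class of 6 genes and Lce1e to Lce1k. The Lce1m part shrinks to about 10% of the bar in both TPA libraries, and the FA+TPA bars are the tallest, at 4474 CPM in KO and 6012.5 CPM in WT.

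Lce6a, the remaining Lce gene, was at 67 CPM in KO and 84.7 CPM in WT under FA+TPA, 38.8 CPM in KO and 51.7 CPM in WT under TPA, and 23.2 and 22.7 CPM in KO and 23.6 and 34.3 CPM in WT with vehicle. Its TPA libraries lay above all vehicle libraries (0.79 ± 0.13, edgeR adjusted p = 0.000471).

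All 6 Lce3 genes stood higher under TPA than with vehicle, where 5 of them were at or near the limit of detection. All but Lce3c passed the filter on low counts only through the treated libraries, so their levels are given as a description, without a test against vehicle. Their counts in single vehicle libraries were 0 to 6. Lce3c (ENSMUSG00000045475, chr3:92944486-92945733, plus strand, 2 exons) was the most abundant, at 50.4 CPM in KO and 44.2 CPM in WT under FA+TPA, 32.3 CPM in KO and 50 CPM in WT under TPA, and 2.44 and 3.54 CPM in KO and 1.58 and 1.97 CPM in WT with vehicle. It passed the filter in vehicle skin too, and TPA raised it (4.09 ± 0.24, edgeR adjusted p = 6.47e-07). The ratio of TPA to vehicle was 10.8 in KO (95% interval 8.92 to 13.1) and 28.1 in WT (21.8 to 36.7), intervals that cover counting error only.

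Lce3d (ENSMUSG00000043472, chr3:92957390-92958505, plus strand, 2 exons) was at 16.1 CPM in KO and 13.2 CPM in WT under FA+TPA, 15.6 CPM in KO and 30.8 CPM in WT under TPA, and 0.141 and 0.0908 CPM in KO and 0.0565 and 0.155 CPM in WT with vehicle (TPA against vehicle 7.56 ± 0.34). In counts, the TPA and vehicle libraries held 347 and 5 in KO and 499 and 4 in WT, which gave ratios of 135 (57.3 to 419) and 285 (110.5 to 1049). Lce3b (ENSMUSG00000042031, chr3:92932979-92934097, plus strand, 2 exons) was the member with no count in WT vehicle skin. It was at 3.86 CPM in KO and 1.02 CPM in WT under FA+TPA, 4.13 CPM in KO and 18.3 CPM in WT under TPA, and 0 and 0.0908 CPM in KO and 0 and 0 CPM in WT with vehicle. In WT, 297 counts under TPA made it at least 226-fold higher against a floor of 3 counts over the vehicle pair. The exact 95% lower limit of that ratio, which also carries the error of the TPA count, was 183. In KO the ratio was 89.5 (24.1 to 750.3), which rests on 2 vehicle counts.

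Lce3a was at 2.96 CPM in KO and 0.891 CPM in WT under FA+TPA, 5.48 CPM in KO and 16.9 CPM in WT under TPA, and 0 and 0.182 CPM in KO and 0.0565 and 0.207 CPM in WT with vehicle (TPA against vehicle 6.46 ± 0.67). Lce3e was at 13.4 CPM in KO and 8.33 CPM in WT under FA+TPA, 7.95 CPM in KO and 20 CPM in WT under TPA, and 0.281 and 0.0454 CPM in KO and 0.283 and 0.103 CPM in WT with vehicle (TPA against vehicle 6.20 ± 0.49). Lce3f was at 8.76 CPM in KO and 7.44 CPM in WT under FA+TPA, 9.25 CPM in KO and 24.6 CPM in WT under TPA, and 0 and 0.182 CPM in KO and 0.226 and 0.103 CPM in WT with vehicle (TPA against vehicle 6.91 ± 0.46). For all 3 genes, every treated library was above every vehicle library. The Lce3 transcripts shared 12.1% (Lce3b) to 49.3% (Lce3d) of their 50-base stretches with other genes, mostly with each other, so the split among Lce3d, Lce3e and Lce3f is uncertain. Summed over the family, the difference of TPA from vehicle was 5.28 ± 0.30. Lce3c made up 43.2% of that sum in KO and 31.2% in WT under TPA, against 71.8% to 85.7% with vehicle.

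**Figure D3:**
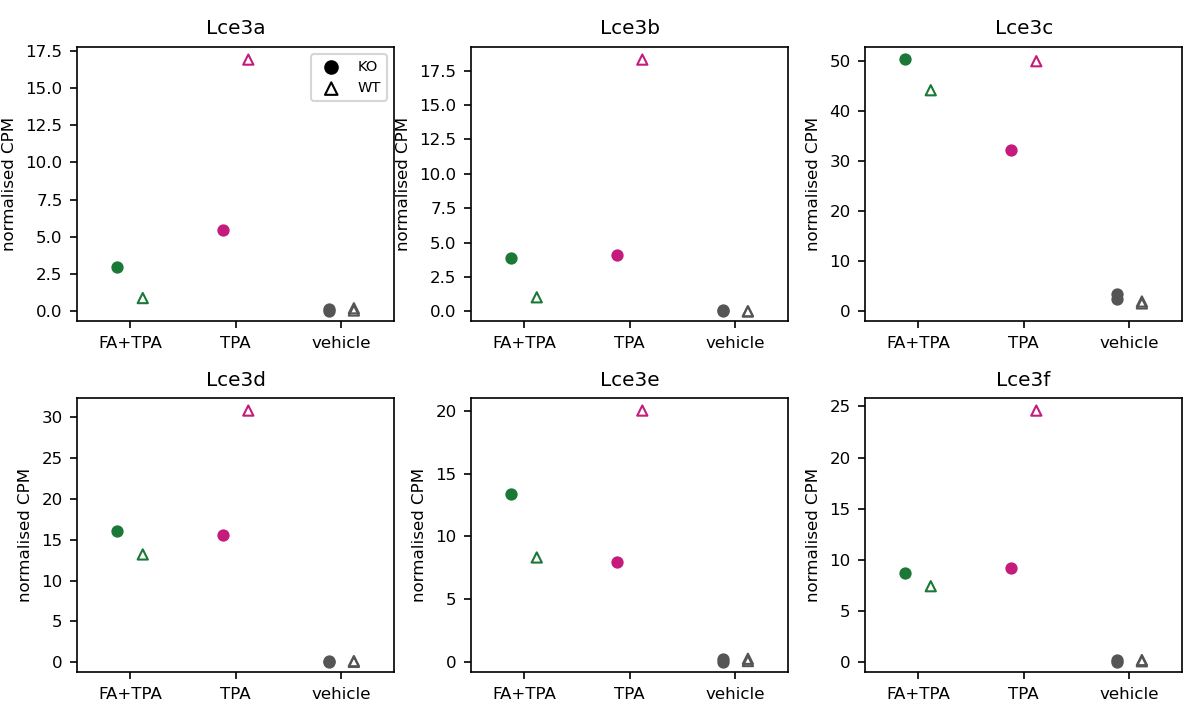
Normalised CPM (linear axes) of the 6 Lce3 genes in each library, with filled circles for KO and open triangles for WT. Under TPA every gene is higher in the WT library than in the KO library, and under FA+TPA the order is the other way round in each panel.

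Outside the Lce family, TPA raised 9 genes and lowered 4 of 19, with changes from -1.23 to 2.76. The 9 crosslinked structural proteins were split, with 2 raised and 4 lowered. Loricrin (Lor; ENSMUSG00000043165, chr3:92080271-92083142, minus strand, 2 exons), the main envelope protein, was at 1413 CPM in KO and 1796 CPM in WT under FA+TPA, 438 CPM in KO and 718 CPM in WT under TPA, and 1038 and 1121 CPM in KO and 1725 and 1303 CPM in WT with vehicle. Both TPA libraries were below all others (-1.19 ± 0.13, edgeR adjusted p = 3.93e-05). Involucrin (Ivl; ENSMUSG00000049128, chr3:92570902-92573735, minus strand, 2 exons), part of the first scaffold, was at 384 CPM in KO and 384 CPM in WT under FA+TPA, 204 CPM in KO and 180.5 CPM in WT under TPA, and 144 and 98.9 CPM in KO and 76.4 and 99.8 CPM in WT with vehicle, and it rose (0.89 ± 0.16, edgeR adjusted p = 0.001). Both genes hold an AP-1 type motif in the windows printed above, and they moved in opposite directions.

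Cornifelin (Cnfn), a small cysteine-rich envelope protein, was at 465 CPM in KO and 479.5 CPM in WT under FA+TPA, 360.5 CPM in KO and 544 CPM in WT under TPA, and 109.6 and 149.8 CPM in KO and 158 and 129 CPM in WT with vehicle (TPA against vehicle 1.71 ± 0.14, edgeR adjusted p = 6.23e-06). Of the structural genes it was the one that rose most. Sciellin (Scel) was at 239.5 CPM in KO and 240.1 CPM in WT under FA+TPA, 191 CPM in KO and 192 CPM in WT under TPA, and 419.6 and 376 CPM in KO and 352 and 428 CPM in WT with vehicle, with no overlap of TPA and vehicle (-1.04 ± 0.10, edgeR adjusted p = 1.75e-05). Periplakin (Ppl), a plakin that links the envelope to desmosomes and keratin, was at 1678 CPM in KO and 1988 CPM in WT under FA+TPA, 1234 CPM in KO and 1459.5 CPM in WT under TPA, and 1681 and 1604 CPM in KO and 1996 and 1979 CPM in WT with vehicle (TPA against vehicle -0.43 ± 0.09, edgeR adjusted p = 0.00209), while its partner envoplakin (Evpl) did not pass (0.17 ± 0.10).

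Lelp1, a proline-rich gene of the complex, was low, at 1.27 CPM in KO and 1.53 CPM in WT under FA+TPA, 0.853 CPM in KO and 0.616 CPM in WT under TPA, and 1.83 and 2.32 CPM in KO and 1.58 and 1.24 CPM in WT with vehicle. Its lower level under TPA (-1.23 ± 0.32, edgeR adjusted p = 0.00961) lost the call when either TPA library was left out. Keratinocyte proline-rich protein (Kprp) and Crct1 did not pass, at 0.11 ± 0.10 and -0.07 ± 0.09. Kprp was at 1168 CPM in KO and 1642 CPM in WT under FA+TPA, 674 CPM in KO and 947 CPM in WT under TPA, and 683 and 677 CPM in KO and 747 and 862 CPM in WT with vehicle, and Crct1 at 998 CPM in KO and 1176 CPM in WT under FA+TPA, 542 CPM in KO and 708 CPM in WT under TPA, and 631 and 569 CPM in KO and 677 and 726 CPM in WT with vehicle.

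All 3 transglutaminases, which crosslink the envelope, rose with TPA. Tgm3 (ENSMUSG00000027401, chr2:130012349-130050399, plus strand, 13 exons) was at 36.4 CPM in KO and 36.3 CPM in WT under FA+TPA, 42.2 CPM in KO and 97.3 CPM in WT under TPA, and 6.85 and 12 CPM in KO and 11 and 9.26 CPM in WT with vehicle (TPA against vehicle 2.76 ± 0.25, edgeR adjusted p = 9.44e-06). Its change was the largest outside the Lce family. Tgm1, the membrane-bound enzyme, rose by 1.16 ± 0.08 and Tgm5 by 1.11 ± 0.16 (edgeR adjusted p = 1.55e-06 and 0.000239). Both proteases rose as well. Caspase-14 (Casp14), which takes part in filaggrin breakdown, was at 422 CPM in KO and 501 CPM in WT under FA+TPA, 256 CPM in KO and 349.8 CPM in WT under TPA, and 127 and 137 CPM in KO and 97.5 and 122 CPM in WT with vehicle (TPA against vehicle 1.32 ± 0.15, edgeR adjusted p = 4.84e-05). Asprv1, an aspartic protease that processes profilaggrin, was at 3845 CPM in KO and 4896 CPM in WT under FA+TPA, 2340.3 CPM in KO and 2940.0 CPM in WT under TPA, and 1575 and 1310.3 CPM in KO and 1512 and 1622 CPM in WT with vehicle (TPA against vehicle 0.80 ± 0.11, edgeR adjusted p = 0.000137).

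Calm4, a calcium-binding protein of the calmodulin family, was at 2514 CPM in KO and 3456 CPM in WT under FA+TPA, 1736 CPM in KO and 2456 CPM in WT under TPA, and 928 and 883 CPM in KO and 991 and 1138 CPM in WT with vehicle, and its TPA libraries were above all vehicle libraries (1.07 ± 0.10, edgeR adjusted p = 1.24e-05). Among the 4 secreted and adhesive proteins, corneodesmosin (Cdsn), which glues corneocytes together, rose by 0.52 ± 0.09 (edgeR adjusted p = 0.000776). Suprabasin (Sbsn) was at 1895 CPM in KO and 2359 CPM in WT under FA+TPA, 1177 CPM in KO and 1302 CPM in WT under TPA, and 1336 and 1336 CPM in KO and 1509 and 1633 CPM in WT with vehicle, and Dmkn at 4586 CPM in KO and 5436 CPM in WT under FA+TPA, 2857 CPM in KO and 3606 CPM in WT under TPA, and 3518 and 3292 CPM in KO and 3324 and 4338 CPM in WT with vehicle. Neither passed (-0.23 ± 0.09 and -0.17 ± 0.12), nor did Krtdap (0.27 ± 0.19).

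Several marker lists moved with these changes. The 4 suprabasal keratinocyte markers summed to 5456 CPM in KO and 8664 CPM in WT under TPA, against 11426 to 13378 CPM with vehicle, and 2 of them were called lower and 1 higher. The fall in the sum came from Krt10, at 1903 CPM in KO and 3188 CPM in WT under TPA, against 7910 to 9763 CPM with vehicle. Krt1 and Dsc1 were not below their vehicle range. Keratins of wounded epidermis (4 of 4 called higher) summed to 12490.0 CPM in KO and 15588 CPM in WT under TPA, against 533 to 725 CPM with vehicle. Neutrophil markers (4 called higher of 6 listed, with Ly6g at 0 in 7 libraries and at most 0.0449 CPM) summed to 396 CPM in KO and 931 CPM in WT under TPA, against 3.84 to 14.7 CPM with vehicle. Under TPA most of this sum came from S100a8 (134 CPM in KO, 367 CPM in WT) and S100a9 (191 CPM in KO, 517 CPM in WT). Csf3r was at 34.8 CPM in KO and 11.9 CPM in WT, and Cxcr2 at 36.3 CPM in KO and 34.9 CPM in WT. Macrophage markers (5 of 6 called higher) summed to 232 CPM in KO and 75.6 CPM in WT under TPA, against 18.1 to 25.8 CPM with vehicle. Most of the sum under TPA came from Mrc1, at 186 CPM in KO and 42.4 CPM in WT. T cell markers (5 of 5 called lower) summed to 10 CPM in KO and 14.2 CPM in WT, against 29.8 to 55.4 CPM. Langerhans cell markers (4 of 5 called lower, 1 higher) summed to 608 CPM in KO and 586 CPM in WT, against 739.6 to 858 CPM. Some of these markers were under the low-count cutoff with vehicle or under TPA, which limits the direction they could take. Among markers at or over it in at least 2 vehicle and both TPA libraries, 3 of 3 neutrophil and 4 of 5 macrophage markers rose. By the same rule 4 of 4 T cell markers fell, and of 3 suprabasal markers 1 rose and 1 fell. Of all genes meeting this rule, 25.2% rose and 22.7% fell. The part of these markers in the members' changes was not tested. The transcript Gm26917 took 16.8% to 24.2% of treated and 8.34% to 13.8% of vehicle libraries, and without it the calls still numbered 24 higher and 7 lower.

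The effect of FA given before TPA was assessed against TPA alone. FA was followed by higher levels in 22 members and a lower level in 1, where 5.71% of all genes rose and 4.31% fell. The median difference was 0.61 over the members and 0.01 over all genes. It raised 12 of 14 Lce1 genes, Lce6a and 9 of 19 non-Lce genes, but none of the Lce3 genes. The count rests on single libraries. Fewer members were called higher when any 1 treated library was left out, and fewer of all genes were too. This comparison and the preceding one share both TPA libraries, so opposite signs in them are not independent.

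Lce1m showed the largest difference, with 1022 CPM in KO and 1362 CPM in WT under FA+TPA, against 228 CPM in KO and 300.1 CPM in WT under TPA (2.17 ± 0.11, edgeR adjusted p = 6.86e-06). Of the other Lce1 genes, the called differences ranged from 0.50 (Lce1e) to 0.94 (Lce1a2), and Lce1g (0.53 ± 0.28) and Lce1k (0.42 ± 0.12) did not pass. Among genes that TPA alone had not changed past the test, Lce1a1 differed by 0.84 ± 0.09 and Lce1c by 0.92 ± 0.11. Among those TPA had raised, Lce1h differed by 0.78 ± 0.13 and Lce1f by 0.61 ± 0.14. The calls of Lce1m, Lce1a1, Lce1b, Lce1a2, Lce1c, Lce1d and Lce1l held under every alternative run, whereas those of Lce1e, Lce1f, Lce1h, Lce1i, Lce1j and Lce6a were each lost without at least 1 treated library. Summed over the family, the Lce1 level was 4474 CPM in KO and 6012.5 CPM in WT under FA+TPA, a difference of 0.99 ± 0.11 from TPA.

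In the Lce3 genes, the differences from TPA ran from -2.36 to 0.20, and Lce3a alone passed (-2.36 ± 0.61, edgeR adjusted p = 0.0332). Lce3a stood at 2.96 CPM in KO and 0.891 CPM in WT under FA+TPA, against 5.48 CPM in KO and 16.9 CPM in WT under TPA. Its call was lost with DESeq2 and without the WT TPA or the WT FA+TPA library. Lce3c did not pass (0.20 ± 0.25), with 50.4 CPM in KO and 44.2 CPM in WT under FA+TPA, against 32.3 CPM in KO and 50 CPM in WT under TPA. For Lce3c, Lce3d and Lce3e the KO library was higher under FA+TPA than under TPA and the WT library was lower.

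Loricrin again stood out among the non-Lce genes, at 1413 CPM in KO and 1796 CPM in WT under FA+TPA, against 438 CPM in KO and 718 CPM in WT under TPA (difference 1.51 ± 0.15, edgeR adjusted p = 0.000233). Its FA+TPA libraries were above both TPA libraries and lay near vehicle levels. Ivl was at 384 CPM in KO and 384 CPM in WT under FA+TPA, against 204 CPM in KO and 180.5 CPM in WT under TPA (difference 1.00 ± 0.19, edgeR adjusted p = 0.00707), higher again than under TPA alone. Crct1, Kprp and Sbsn, which TPA alone had not changed past the test, rose by 0.81 ± 0.10, 0.79 ± 0.12 and 0.77 ± 0.10 (edgeR adjusted p = 0.00101, 0.00192 and 0.00115). Asprv1, Dmkn, Calm4 and Ppl also rose, by 0.73 ± 0.13, 0.64 ± 0.14, 0.51 ± 0.12 and 0.44 ± 0.10 (edgeR adjusted p = 0.00494, 0.0145, 0.0217 and 0.0162). These 4 genes, Ivl and Kprp each lost the call without at least 1 of the treated libraries, whereas Lor, Crct1 and Sbsn did not.

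The transglutaminases did not share this. Tgm1, Tgm5 and Tgm3 differed by 0.06 ± 0.09, -0.44 ± 0.19 and -0.86 ± 0.29, and none passed (edgeR adjusted p = 0.752, 0.181 and 0.0925). Cnfn differed by 0.08 ± 0.17 (edgeR adjusted p = 0.831). Suprabasal markers (2 of 4 called higher) summed to 16328 CPM in KO and 18670.4 CPM in WT under FA+TPA, against 5456 CPM in KO and 8664 CPM in WT under TPA. Wound-type keratins summed to 3829 CPM in KO and 3445 CPM in WT under FA+TPA, against 12490.0 CPM in KO and 15588 CPM in WT under TPA. Their part in the result was not tested.

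**Figure D4:**
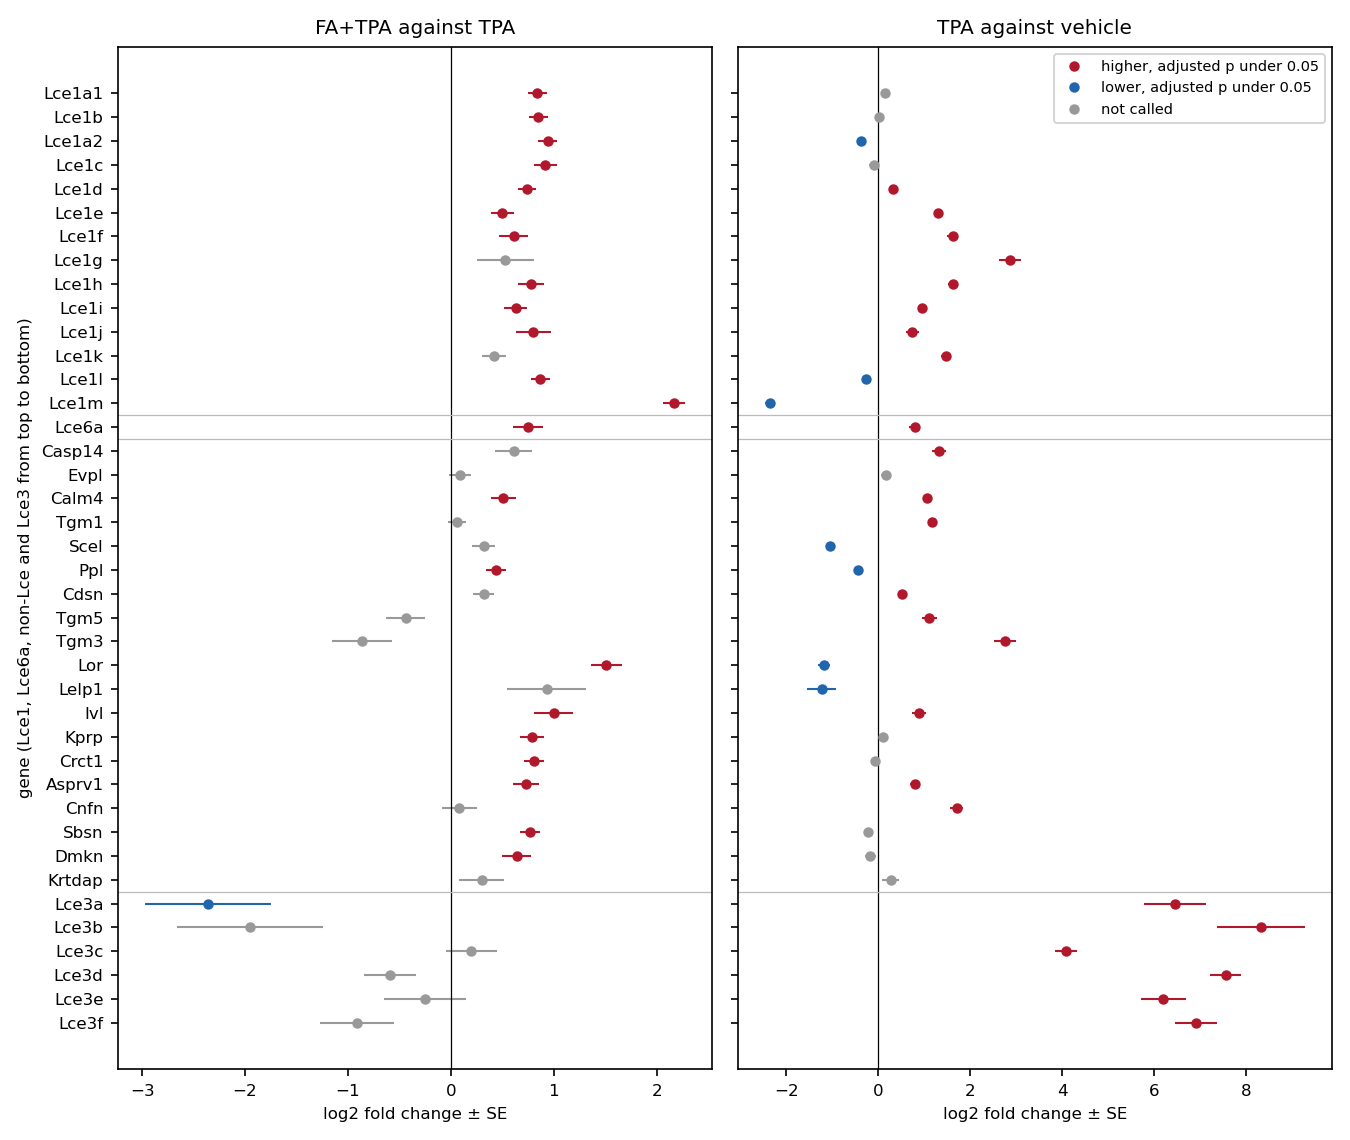
Log2 fold change ± SE of each of the 40 members for FA+TPA against TPA (left) and TPA against vehicle (right), coloured by call. Lce1m and Lor lie far to the right in the left panel and to the left of 0 in the right panel, while all 6 Lce3 genes are above 4 in the right panel only.

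Skin given FA and TPA was also set against vehicle, which shares its libraries with both comparisons above. Of the 40 members 34 were higher and 1 lower, where 17.4% and 14.2% of all genes were. Without the 5 Lce3 genes that reached the cutoff only in treated libraries, 29 of 35 were higher and 1 lower, where 18.7% and 14.9% of the 16502 genes over the cutoff in at least 2 vehicle and both FA+TPA libraries were. The median was 1.37 over the members and -0.01 over all genes. Under scaling by library size alone, 32 members were higher and 2 lower, and all genes split into 1953 higher and 4982 lower, against 3347 and 2729 with TMM. Lce1m and Lor, the genes TPA had lowered by over 1 log2 unit together with Scel and Lelp1, did not differ past the test from vehicle (-0.19 ± 0.09, edgeR adjusted p = 0.161 for Lce1m and 0.32 ± 0.12, edgeR adjusted p = 0.0698 for Lor). Scel remained lower (-0.72 ± 0.10, edgeR adjusted p = 0.000411). The 13 other Lce1 genes were higher by 0.56 to 3.39, with Lce1g, Lce1h and Lce1f at 3.39 ± 0.24, 2.40 ± 0.11 and 2.23 ± 0.12. Casp14 (1.93 ± 0.15), Tgm3 (1.90 ± 0.25) and Ivl (1.89 ± 0.16) had the largest differences outside the Lce family. Lce3c was higher by 4.29 ± 0.24, edgeR adjusted p = 1.34e-06. The other Lce3 genes differed by 4.10 (Lce3a) to 6.97 (Lce3d), given without a test because they passed the filter only through treated libraries. Evpl, Ppl and Lelp1 did not pass, and the calls of Tgm5, Dmkn and Krtdap were lost without either FA+TPA library.

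KO and WT epidermis were compared over all treatments. In KO, 14 members were lower and 1 was higher, where 1.60% of all genes were lower, 1.98% higher and 3.58% either. The median was -0.34 over the members and -0.01 over all genes. Of the 14 Lce1 genes 11 were lower and 1, Lce1k, was higher. Of the 19 non-Lce genes, Lor, Kprp and Calm4 were lower (-0.51 ± 0.10, -0.37 ± 0.08 and -0.36 ± 0.08). None of the Lce3 genes passed, with differences from -0.65 to 0.06 and no p under 0.05 before adjustment. In all 6, KO was below WT under TPA and above it under FA+TPA, so these values average opposite differences. The calls over all treatments rested on single libraries too. Fewer members were called lower when any 1 treated or KO vehicle library was left out, and fewer of all genes were too. With 1 mean per group 5 members were called lower, and the calls over all genes fell as well. With scaling by library size alone 6 members were lower and 1 higher, and all genes split into 640 higher and 233 lower, against 382 and 308 with TMM.

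Most of the differences were small and similar in size. The largest was in Lce1j (ENSMUSG00000068887, chr3:92788840-92790514, minus strand, 3 exons), at 116 CPM in KO and 207 CPM in WT under FA+TPA, 69 CPM in KO and 114 CPM in WT under TPA, and 30.8 and 35 CPM in KO and 79.9 and 91.9 CPM in WT with vehicle. Each KO library was below the WT libraries of the same treatment (-1.08 ± 0.12, edgeR adjusted p = 0.00114). Lce1k, the next gene (ENSMUSG00000095870, chr3:92806291-92807891, minus strand, 2 exons), was at 139.6 CPM in KO and 108 CPM in WT under FA+TPA, 116 CPM in KO and 71.7 CPM in WT under TPA, and 34.5 and 41.9 CPM in KO and 27.2 and 29.9 CPM in WT with vehicle. It was higher in KO in each treatment (0.48 ± 0.09, edgeR adjusted p = 0.0155), and the call was lost in 5 of the alternatives, among them leaving out any 1 of the treated libraries. Shared 50-base stretches made up 22.0% of the Lce1j transcript and 9.12% of the Lce1k transcript, and the partners that Lce1j shared most with, Lce1g and Lce1e, differed by -0.22 ± 0.21 and -0.35 ± 0.08.

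The other Lce1 calls ran from -0.35 ± 0.06 (Lce1a2) to -0.52 ± 0.09 (Lce1h). Lce1i (-0.51 ± 0.08, edgeR adjusted p = 0.00614), Lce1d (-0.43 ± 0.06, edgeR adjusted p = 0.0054), Lce1l (-0.46 ± 0.06, edgeR adjusted p = 0.00395) and Lce1j kept their calls under every alternative run. For Lce1m the difference was -0.40 ± 0.08 (edgeR adjusted p = 0.0175), lost without either FA+TPA library, without the second KO vehicle library, with 1 mean per group and with library size alone. The summed Lce1 level differed by -0.39 ± 0.08. Every KO library was below every WT library of the same treatment, in all 3 treatments, for 21 of the 40 members, including 11 Lce1 genes, Lce6a and 9 non-Lce genes, where 9.16% of all genes met that rule. The opposite order held for Lce1k alone among the members and for 8.98% of all genes.

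Markers of 3 other kinds of cell differed with genotype. Sebaceous gland markers (4 of 6 called higher in KO) summed to 3008.5 CPM in KO and 1143 CPM in WT under FA+TPA, 3191 CPM in KO and 2803 CPM in WT under TPA, and 4222 to 5422 CPM in KO and 1616 to 2509 CPM in WT with vehicle. Skeletal muscle markers (4 of 4 called higher in KO in vehicle skin, 0 of 4 over all treatments) summed to 38.5 to 115 CPM in KO and 3.88 to 13.3 CPM in WT with vehicle. Their sum was 64.4 CPM in KO and 56.9 CPM in WT under FA+TPA, and 19.5 CPM in KO and 11.7 CPM in WT under TPA. T cell markers (2 of 5 called lower in KO over all treatments, Cd3e by -0.62 ± 0.12 and Trdc by -0.86 ± 0.17) summed to 8.51 CPM in KO and 10.8 CPM in WT under FA+TPA, 10 CPM in KO and 14.2 CPM in WT under TPA, and 29.8 to 37.7 CPM in KO and 54.4 to 55.4 CPM in WT with vehicle. Suprabasal keratinocyte markers, of which none was called, summed to less in KO than in WT in each treatment, at 11426 to 11512 CPM in KO and 13258 to 13378 CPM in WT with vehicle. Their part in the lower Lce1 levels was not tested.

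**Figure D5:**
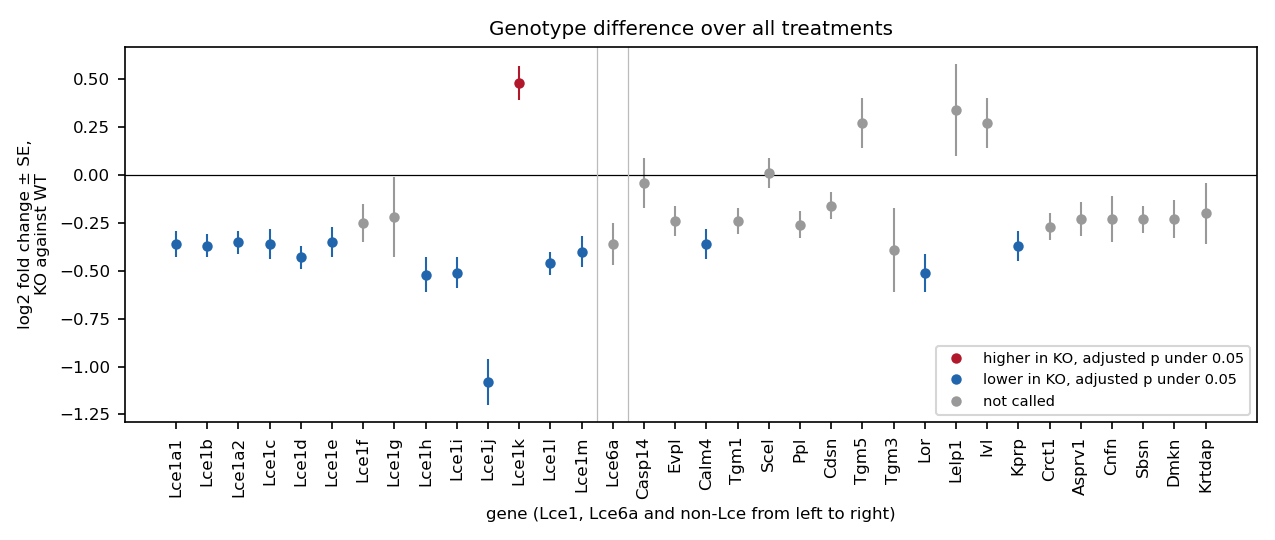
Log2 fold change ± SE, KO against WT over all treatments, of the 34 members outside the Lce3 family, coloured by call. Lce1j lies lowest, at -1.08, its neighbour Lce1k is the one gene called higher, at 0.48, and most other Lce1 genes lie between -0.3 and -0.6.

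In vehicle skin alone, where both genotypes had 2 libraries, Lce1j was the one member called, lower in KO (-1.39 ± 0.13, edgeR adjusted p = 0.000895), where 0.727% of all genes were lower and 1.44% higher. It held under every alternative run. Before adjustment 15 members had a p under 0.05, among them 11 Lce1 genes, as did 11.5% of all genes. Next after Lce1j, Lce1l differed by -0.52 ± 0.12 (edgeR adjusted p = 0.0562) and Tgm5 by 0.59 ± 0.14 (edgeR adjusted p = 0.0654). The number of members called lower was 11 without the first WT vehicle library and 6 without the second, and 5 were called higher without the second. Calls over all genes grew as well, to 2.09% lower without the first and 3.1% lower and 4.5% higher without the second.

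Whether the genotypes responded differently was tested as an interaction, with the single treated libraries assumed to vary like the vehicle pairs. By edgeR no member passed for TPA or for FA before TPA, where 0.00519% and 0% of all genes passed. Without adjustment, 6 members had a p under 0.05 for TPA and 7 for FA, against 1014 and 613 of 19251 genes. DESeq2 and limma-voom called no member either. On simulated counts the edgeR fit recovered 11% of 2-fold interactions with TPA and 6% with FA, so a missing call does not show equal responses. The 7 for FA included all 6 Lce3 genes, with interaction values from 0.82 ± 0.32 (Lce3c) to 4.06 ± 0.64 (Lce3b), and Tgm3 (1.21 ± 0.42). All the Lce3 genes but Lce3c reached the low-count cutoff only in treated libraries. The vehicle pairs thus give no spread at their treated levels, and their values are a description only. When 1 vehicle library was left out, so that the spread rested on fewer libraries, 3 to 6 members were called for FA, and the genes called over all tested numbered 42 to 138 higher and 9 to 45 lower. Apart from Tgm3, the members called in this way were Lce3 genes other than Lce3c, so the same limit holds for them.

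These values followed one order of the libraries. In each of the 6 Lce3 genes the KO library was below the WT library under TPA and above it under FA+TPA, a pattern noticed in the data that 21.0% of all genes met. Lce3b was at 3.86 CPM in KO and 1.02 CPM in WT under FA+TPA, and at 4.13 CPM in KO and 18.3 CPM in WT under TPA. Tgm3 and Tgm5 followed the same order. Of the 4 neutrophil markers tested, S100a8 and S100a9 followed it and Csf3r and Cxcr2 did not. S100a9 was at 119.9 CPM in KO and 66 CPM in WT under FA+TPA, against 191 CPM in KO and 517 CPM in WT under TPA, whereas Csf3r was at 3.62 CPM in KO and 3.12 CPM in WT under FA+TPA, against 34.8 CPM in KO and 11.9 CPM in WT under TPA. Of the 4 wound-type keratins, Krt17, Krt6a and Krt6b followed it and Krt16 did not. So did 6 of 12 small proline-rich genes tested, 3 of 6 fibroblast markers and 3 of 15 transcription factors of late differentiation. The order was thus not particular to the Lce3 genes. Their part in the Lce3 values was not tested, and with 1 library in each treated group a difference between genotypes and a difference between those libraries cannot be told apart.

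Other genes of envelope formation were taken from 6 lists. Of all genes tested, 23.2% rose and 22.8% fell with TPA, and 5.71% rose and 4.31% fell with FA against TPA. With TPA, the small proline-rich genes, which encode envelope proteins of stressed epithelia, were higher in 12 of 12 tested (of 15). Of these, 6 reached the low-count cutoff only in treated libraries and could only come out higher, and the other 6 rose, including Sprr1b (6.59 ± 0.24, edgeR adjusted p = 3.32e-08) and Sprr2h (5.86 ± 0.20, edgeR adjusted p = 2.69e-08). Of the 12, FA lowered 6 against TPA and raised none. That count is limited by the filter. Sprr2b, Sprr2i and Sprr2j-ps, at most 0.664 CPM under FA+TPA, were kept through the TPA libraries and could only come out lower. Sprr2a3 was at 4.41 CPM in KO and 4.71 CPM in WT under FA+TPA, against 46.5 CPM in KO and 122 CPM in WT under TPA (difference -4.10 ± 0.37, edgeR adjusted p = 0.000123). Sprr4 was at 9.84 CPM in KO and 9.67 CPM in WT under FA+TPA, against 39.2 CPM in KO and 37 CPM in WT under TPA (difference -1.96 ± 0.21, edgeR adjusted p = 0.000337). The 11 filaggrin-type genes and differentiation keratins were split, with 4 higher and 4 lower under TPA. Among them the keratin Krt10 fell with TPA (-1.84 ± 0.14, edgeR adjusted p = 3.11e-06) and rose with FA (1.89 ± 0.15, edgeR adjusted p = 7.31e-05), and Krt77 fell (-1.61 ± 0.12, edgeR adjusted p = 2.46e-06) and rose (1.14 ± 0.13, edgeR adjusted p = 0.000413).

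Genes that attach lipids to the envelope rose with TPA in 8 of 12 and fell in 1, where 23.2% of all genes rose and 22.8% fell. The epoxide hydrolase gene Ephx3 was at 0.89 ± 0.08 (edgeR adjusted p = 1.02e-05). FA raised 3 of the 12, among them the lipoxygenases Aloxe3 (1.11 ± 0.15, edgeR adjusted p = 0.00108) and Alox12b (0.79 ± 0.14, edgeR adjusted p = 0.00517). With FA, 5.71% of all genes rose and 4.31% fell. Of 12 tested desquamation proteases and inhibitors (of 13), 1 was under the cutoff with vehicle, and the other 11 rose with TPA, with the cathepsin Ctsl and the cystatin Cst6 at 2.83 ± 0.09 and 3.11 ± 0.13 (edgeR adjusted p = 2.19e-08 and 1.03e-07). FA raised 2 and lowered 3 of the 12, including Cst6 (-0.77 ± 0.16, edgeR adjusted p = 0.0108). Klk14, also among the 3, was at 0.483 CPM in KO and 0.573 CPM in WT under FA+TPA, against 3.05 CPM in KO and 5.61 CPM in WT under TPA. With at most 0.136 CPM in vehicle libraries, it was kept by the filter through the TPA libraries and could only come out lower. Its difference (-2.98 ± 0.44) is therefore a description only. Of 9 junction proteins that are crosslinked to the envelope, TPA raised 3 and lowered 1, beside the 23.2% and 22.8% of all genes. The desmogleins Dsg1b (1.30 ± 0.11, edgeR adjusted p = 6.96e-06) and Dsg1a (-0.77 ± 0.14, edgeR adjusted p = 0.00118) were among these. FA changed no junction gene past the test.

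Of 15 transcription factors of late differentiation, 6 rose and 3 fell with TPA, where 23.2% of all genes rose and 22.8% fell. The glucocorticoid receptor gene Nr3c1 fell (-1.01 ± 0.11, edgeR adjusted p = 2.71e-05) and Ovol1 rose (0.82 ± 0.09, edgeR adjusted p = 3.38e-05). FA raised 2 and lowered 1, where 5.71% of all genes rose and 4.31% fell. Prdm1 and Klf4, both of which act in barrier formation, were at 0.54 ± 0.11, edgeR adjusted p = 0.0118 and 0.43 ± 0.10, edgeR adjusted p = 0.02. Between genotypes over all treatments, 1 of these factors was lower in KO and no gene of the other 5 lists passed. Of all genes, 1.60% were lower and 1.98% higher. In vehicle skin alone 1 factor was lower in KO, and 2 genes of the filaggrin-type list were higher, Flg by 0.82 ± 0.18, edgeR adjusted p = 0.0448 and Rptn by 2.70 ± 0.48, edgeR adjusted p = 0.0205. There 0.727% of all genes were lower and 1.44% higher.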

How the data were processed

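The authors deposited 1 file per library with the raw read count of each Ensembl gene. Trim Galore, STAR, HTSeq and mm10 are named in the submitters' processing notes. The sources used here give no version, annotation or strand setting, so overlapping, antisense and near-identical genes can share or lose reads. Of 54232 identifiers, 54165 matched GENCODE M21 and gave symbols and coordinates.

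Counts were tested with edgeR 4.0.16 (quasi-likelihood, TMM, filterByExpr by treatment, minimum count 10), which kept 19251 genes and all 40 members, 5 of them through treated libraries only. Treatment and genotype were fitted additively on all 8 libraries (4 residual degrees of freedom). Vehicle skin and interactions used 1 mean per group (2 residual degrees of freedom). P-values were adjusted by Benjamini-Hochberg at 0.05. SE was derived from F, as the size of the log2 fold change over its square root. On simulated counts the fits recovered 58% to 83% of 2-fold changes for the treatment and genotype comparisons. For the interactions they recovered 11% with TPA and 6% with FA. Depth was 16874233 to 22560098 counts, and ratio intervals are exact, at 95%, and cover counting error only. Vehicle pairs differed by more than sampling noise (chi-square per degree of freedom 12.37 in KO and 27.57 in WT).

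Named genes were taken by rule: in each group, the 5 most abundant members, the 3 largest called rises and falls per comparison, members called against their group, and members called for genotype; from each pathway list, up to 2 genes of smallest p for TPA and for FA. Others were added to account for all members, and marker genes, Flg and Rptn were named after their values were seen, as was the split by the low-count cutoff in vehicle libraries. Members, lists and tests were chosen with earlier results of these data known. Alternatives were RLE normalisation, library size only, TMM without the members, removal of Gm26917, limma-voom, DESeq2, 1 mean per group throughout, a minimum count of 50 or none, each library left out, and a fit of the vehicle libraries with or without a replicate block. The protein sequences named in the plan were not used here. Promoter windows came from RefSeq. A single listed gene is not reported here.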

Additional observations from a re-analysis of the deposited data

How the results depend on the processing

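Of 4223 values of single members under the alternatives, 3981 kept direction and side of the threshold, 113 newly passed, 128 no longer passed and 1 reversed: without the KO TPA library, Lce3b was higher in KO over all treatments (1.95, edgeR adjusted p = 0.0467, against -0.54 with all libraries, and -2.0 to 1.97 with each library left out). The cause was not tested. Scaling by library size only gave 11 members lower with TPA (7 non-Lce), 2 lower for FA+TPA against TPA (1 non-Lce), 2 lower for FA+TPA against vehicle (1 Lce1) and 6 lower in KO. Without the low-count filter, 6 were lower for FA+TPA against TPA (4 Lce3, 2 non-Lce) and 1 higher in KO vehicle skin. With 1 mean per group, 3 were lower for FA+TPA against TPA (2 Lce3, 1 non-Lce) and 5 lower in KO. DESeq2 gave 0 lower for FA+TPA against TPA (0 Lce3) and 2 lower in KO vehicle skin.

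With each library left out in turn, 7 to 8 Lce1 genes and 9 to 10 non-Lce genes were higher with TPA. The Lce3 genes are not counted there, since all but Lce3c reached the low-count cutoff only in treated libraries. Members lower with TPA numbered 4 to 9 (Lce1 1 to 3, non-Lce 3 to 6). For FA+TPA against TPA, 11 to 26 were higher (Lce1 8 to 13, non-Lce 3 to 12) and 0 to 6 lower (Lce3 0 to 4, non-Lce 0 to 2). For FA+TPA against vehicle, 30 to 36 were higher, a count that holds those Lce3 genes, and 1 lower. Over all treatments, 4 to 15 were lower and 0 to 1 higher in KO. In vehicle skin 1 to 11 were lower and 0 to 5 higher in KO. Interactions gave 0 to 1 higher and 0 to 3 lower for TPA, and 3 to 6 higher for FA.

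The labels number the vehicle replicates 1 and 2, but do not say that a number marks shared animals, and same-numbered libraries did not deviate together (correlation -0.098 over 19251 genes). On the vehicle libraries alone, a replicate block gave 1 member higher and 2 lower in KO. Depth limits all Lce3 genes but Lce3c, at 0 to 6 counts per vehicle library. Treated groups of 1 library cannot show the spread within a treatment.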
